A study of Homo sapiens with 8 samples.

Results

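The miR-548 family was examined in small RNA libraries made from HEK293, an established line of human embryonic kidney cells. Its members here are the 32 table entries whose name starts with hsa-miR-548, out of 2867 entries in all, of which 903 were known microRNAs and 1964 were predicted ones. The cells of 4 libraries were transfected with 100 nM of an antisense oligonucleotide (ASO), which is a short synthetic strand that pairs with a chosen RNA, and those of the other 4 libraries, the controls, received none. Both groups were harvested after 48 h, and miR-31 is the target according to the names of the libraries. No group received an unrelated ASO, and the control titles do not say whether those cells were mock-transfected. The stated question was whether the ASO had off-target effects on small RNAs.

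MicroRNAs are short RNAs cut from hairpin precursors by Drosha and Dicer, and they repress messenger RNAs that pair with their seed, the bases from 2 to 8. The miR-548 family is known from primates, and its hairpins derive from MADE1, a short non-autonomous DNA transposon whose inverted terminal repeats fold back on each other. Because so many copies lie across the genome, many miR-548 genes make closely similar mature strands.

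The sequences of the members that carry the results are given first, because their likeness bears on how reads can be assigned to them. RefSeq (GRCh38.p14) held the mature sequence of 22 of the 32 members, at 28 loci. Each is written 5′ to 3′ with the seed in capitals. These are the members from the 5′ arm of the hairpin, or of the same type, that had the highest counts among those with a RefSeq sequence (miR-548ad-5p and miR-548ae-5p, unmatched, are named only), with miR-548k added because it begins with all 18 bases that RefSeq gives for miR-548av-5p.
miR-548b-5p: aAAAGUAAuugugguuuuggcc
miR-548ap-5p: aAAAGUAAuugcggucuuu
miR-548av-5p: aAAAGUACuugcggauuu
miR-548k: aAAAGUACuugcggauuuugcu
miR-548l: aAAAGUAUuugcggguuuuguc
miR-548ag: aAAGGUAAuugugguuucugc
miR-548t-5p: cAAAAGUGaucgugguuuuug

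The next set holds the most abundant member of all, miR-548au-3p, and members of the 3′ arm type that were present in some libraries and at 0 in others.
miR-548au-3p: uGGCAGUUacuuuugcaccag
miR-548u: cAAAGACUgcaauuacuuuugcg
miR-548aq-3p: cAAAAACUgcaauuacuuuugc
miR-548ah-3p: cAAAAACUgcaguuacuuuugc
miR-548f-3p: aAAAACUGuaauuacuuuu
miR-548bc: aAAAACUGugauuacuuuugc

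The 5′ arm and 3′ arm members mirror each other. The motif AAGUAA was in 4 of the 22 matched members and its reverse complement UUACUU in 10, so 14 held one or the other on the strand given. Among 2315 RefSeq mature names outside the family, 0.778% held either. The members were rich in A and U, with a median of 65.0% against 47.8% for the other names. By seed, miR-548b-5p, miR-548ap-5p, miR-548as-5p and miR-548y shared AAAGUAA, miR-548aq-3p, miR-548x-3p, miR-548ah-3p and miR-548j-3p shared AAAAACU, miR-548bc and miR-548f-3p shared AAAACUG, and miR-548ag and miR-548ba shared AAGGUAA. The remaining 10 matched members each had a seed of their own within the set. RefSeq's miR-548ap-5p and miR-548j-5p have the same first 18 bases, and miR-548aq-3p and miR-548ah-3p lie 1 edit apart. Like miR-548k, miR-548j-5p had no entry of its own among the members. The deposited length of an entry equalled the RefSeq length for 9 of the 22 matched members and was longer for 10, so an entry need not stand for exactly the RefSeq strand.

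Several of these strands lie in introns of other genes (GENCODE release 29, GRCh38). The strand of miR-548au-3p lies at chr9:93594874-93594894 (plus strand), within an intron of PHF2, a histone demethylase gene. That of miR-548b-5p lies at chr6:119069098-119069119 (minus strand), within an intron of FAM184A. That of miR-548av-5p lies at chr18:72853365-72853382 (minus strand), within an intron of NETO1. That of miR-548l lies at chr11:94466545-94466566 (minus strand), within an intron of MRE11, which encodes a DNA double-strand break nuclease. That of miR-548t-5p lies at chr4:173268169-173268189 (plus strand), within an intron of GALNT7. That of miR-548u lies at chr6:57390180-57390202 (plus strand), within an intron of PRIM2, a primase subunit gene, and that of miR-548aq-3p at chr3:185767847-185767868 (minus strand), within an intron of IGF2BP2, all on the strand of the host gene. The strand of miR-548ap-5p (chr15:85825655-85825673, plus) overlapped no gene other than its own.

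The libraries held between 8168828 and 11677123 counts in all. Levels are given in CPM, counts scaled to 1000000 per library, in which 1 count is worth 0.0856 to 0.122. A count of 0 allows up to 3 counts, which is 0.257 to 0.367 CPM. Such limits and the Wilson intervals below reflect counting error alone, and reads copied by PCR are not separate molecules. Intervals of log2 fold changes come from edgeR's fit and also take in the spread between libraries. The target, miR-31-5p, did not separate the groups and gave no check of the labels. It ranged from 633 to 1012 CPM with ASO and from 348 to 1050 CPM without (log2 fold change 0.19, SE 0.33, edgeR adjusted p = 0.851). Nothing in the labels says that each library is a culture of its own, and a p-value here measures only how far these libraries lie apart, a spread that may be technical. In RNA from whole cultures, fewer cells with a microRNA and less of it per cell cannot be told apart.

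The family was a small part of the libraries. Its 32 entries held 0.0574% (Wilson 95% interval 0.0560 to 0.0588%) of counts in ASO library 2, the lowest share, and 0.0788% (0.0770 to 0.0806%) in control library 2, the highest. A single entry, miR-548au-3p, held 36.8% of the family's counts over all libraries, miR-548b-5p held 16.4% and miR-548av-5p 12.6%. The first 10 entries held 91.0%, and miR-548au-3p ranked 133 among the 903 known microRNAs by mean count. Adapter ligation favours some sequences over others, so this order is one of counts and not of molecules. Small RNA counts are not divided by length, since 1 read spans the whole strand, and the members' deposited lengths were 21, 22 or 23 bases.

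Detection was uneven. Of the 32 entries, 14 were above 0 in all 8 libraries, 6 in a single library, and 24 had a mean raw count of at least 10. Among ASO libraries 1 to 4, the entries at 0 numbered 10, 12, 10 and 16, and among controls 1 to 4 they numbered 13, 10, 8 and 10. The groups overlapped in this number, with the highest in ASO library 4 and the lowest in control library 3, the library with the fewest counts in all.

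**Figure D1:**
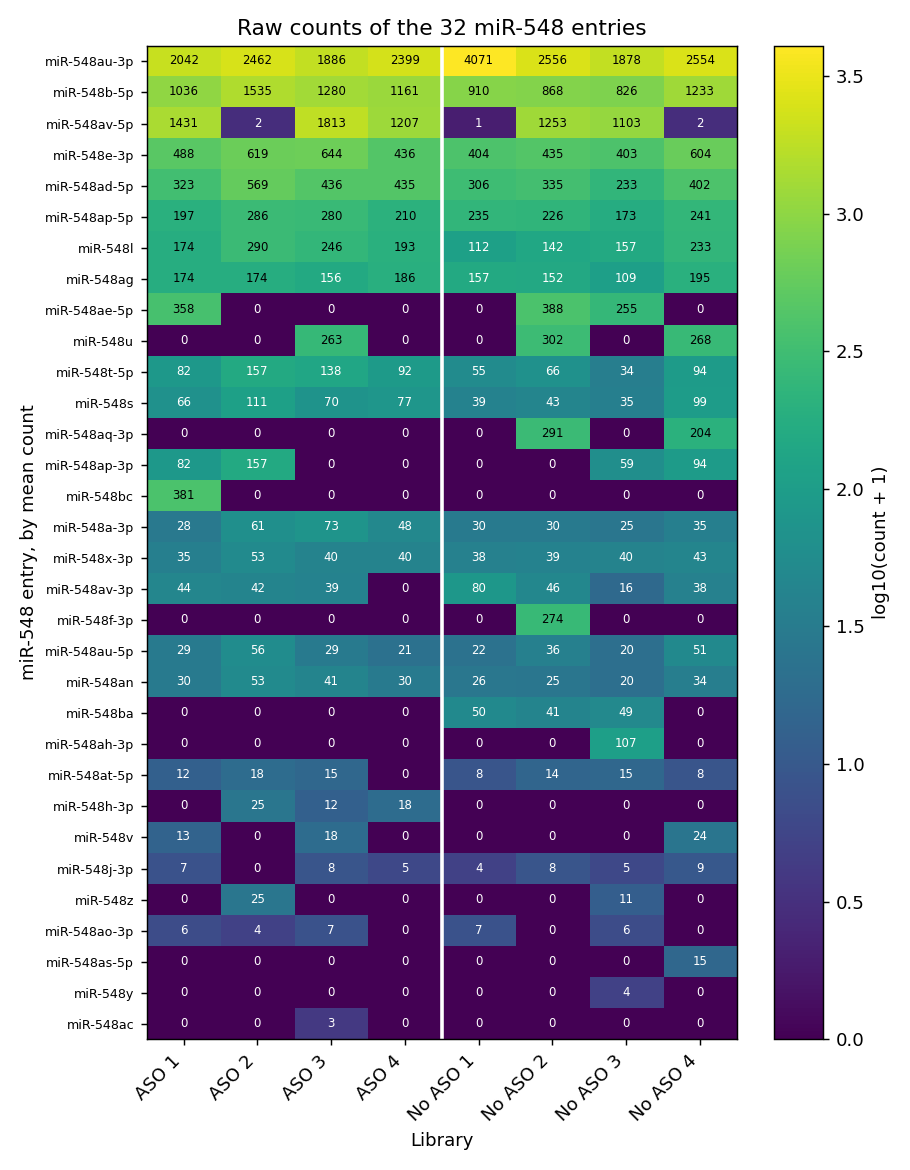
Raw counts of the 32 miR-548 entries (rows, by mean count) in the 8 libraries (columns, ASO to the left of the white line), with colour giving log10(count + 1). A block of entries is present in all libraries, while others such as miR-548bc, with 381 counts in ASO library 1 and 0 elsewhere, are in few.

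Several entries were well above the counting floor in some libraries and at 0 in others of the same group. At 0 in at least 1 library and at least 100 in another were 7 of the 32 entries (21.9%), against 24 of the 871 other known microRNAs (2.76%). Among entries with a mean count of at least 10, 10 of 24 members (41.7%) and 79 of 537 other known microRNAs (14.7%) were at 0 in at least 1 library. Over all entries, predicted ones included, the first share was 4.95% (142 of 2867) and the second 38.0% (337 of 887). Predicted entries alone stood at 5.65% and 76.1%. Of the 7 entries, miR-548ae-5p, miR-548u and miR-548ap-3p were present in some libraries of both groups. The other 4 were present in 1 group only: miR-548aq-3p, miR-548f-3p and miR-548ah-3p in 1 or 2 controls, and miR-548bc in 1 ASO library. These are descriptions of these libraries, with no test.

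The clearest case was miR-548av-5p. Its raw count in ASO libraries 1 to 4 was 1431, 2, 1813 and 1207. In controls 1 to 4 it was 1, 1253, 1103 and 2. It was therefore the third entry of the family by mean count and nearly absent from ASO library 2 and control libraries 1 and 4. In the 5 libraries that held it, it stood at 117 to 162 CPM after scaling for library composition by the trimmed mean of M-values (TMM), and in the other 3 at 0.0986 to 0.175 CPM, below the limit that a count of 0 allows. The entry named for the opposite strand of the same hairpin, miR-548av-3p, did not follow this pattern. It had 44, 42, 39 and 0 counts in ASO libraries and 80, 46, 16 and 38 in controls. Its highest count was in control library 1, where miR-548av-5p had 1 count. The 20 RefSeq bases of miR-548av-3p also lie within miR-548ah-3p and miR-548o-3p. The miR-548av-5p and miR-548av-3p entries therefore need not come from the same hairpin. miR-548k had no entry of its own among the members. How the authors' counting assigned reads that fit both miR-548av-5p and miR-548k is not given in the sources used here, and its part in the pattern was not tested.

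Among the 3′ arm strands, miR-548u had 263 counts in ASO library 3, 302 in control library 2 and 268 in control library 4, and 0 in the other 5 libraries. miR-548aq-3p had 291 counts in control library 2 and 204 in control library 4, and 0 elsewhere. Both libraries that held miR-548aq-3p thus also held miR-548u, while ASO library 3 held miR-548u alone. These strands lie 2 edits apart.

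Others were in 1 library only. miR-548f-3p, which RefSeq places at 5 loci, had 274 counts in control library 2, miR-548bc 381 in ASO library 1 and miR-548ah-3p 107 in control library 3, each with 0 in the other 7. The 20 bases of miR-548av-3p lie within miR-548ah-3p. Control library 2 held miR-548u, miR-548aq-3p and miR-548f-3p together.

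On the 5′ arm, miR-548ae-5p had 358 counts in ASO library 1, 388 in control library 2 and 255 in control library 3, and 0 in the other 5 libraries. In those 3 libraries its count was 1.11, 1.16 and 1.09 times that of miR-548ad-5p. miR-548ad-5p was present in all 8.

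Counts that repeated between members were rare. No member had the same nonzero counts as another member in all 8 libraries. The 3 members whose counts equalled those of entries outside the family in all libraries were miR-548as-5p, miR-548y and miR-548ac, each above 0 in 1 library and at no more than 15 counts. At 50 counts or more, the 1 member pair equal in more than 1 library was miR-548t-5p and miR-548ap-3p, named for hairpins at different loci. Both had 82 counts in ASO library 1, 157 in ASO library 2 and 94 in control library 4. In control library 3 miR-548ap-3p had 59 counts and miR-548t-5p 34. In the other 4 libraries miR-548ap-3p was at 0 while miR-548t-5p had 55 to 138. Whether these entries drew on the same reads in those 3 libraries was not tested, so they cannot be taken as independent there. Over all known microRNAs, 10 pairs were equal at 50 counts or more in at least 3 libraries.

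**Figure D2:**
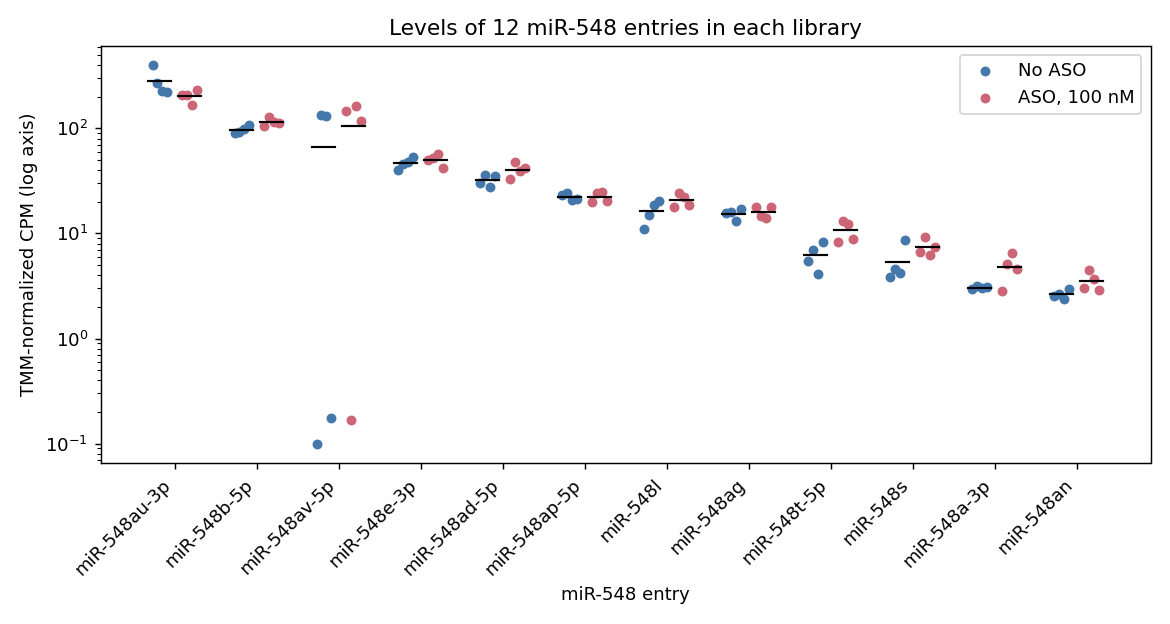
TMM-normalized CPM (log axis) of 12 miR-548 entries, with 1 point per library, blue without ASO and red with 100 nM ASO, and a black line at the group mean. The points of miR-548av-5p split into 2 levels in both groups, while those of miR-548ap-5p and miR-548ag lie within a narrow range.

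The ASO and control groups were compared with edgeR's quasi-likelihood test over the 745 entries with a mean count of at least 10 and a count above 0 in at least 4 libraries, and 17 members qualified. Of the other 15 members, 7 had a mean of at least 10 but were above 0 in fewer than 4 libraries, and 8 had a mean under 10. Just above that mean lay miR-548at-5p, at 11.25, and just below it miR-548h-3p and miR-548v, both at 6.88. No member passed an adjusted p of 0.05, where 0.134% of all entries tested did (1 of 745). At an unadjusted p under 0.05 there were 3 members, all higher with ASO, where 4.43% of all entries were called in that direction (10.5% in either). DESeq2 also called 0 members, where it called 23 of all entries tested (3.09%, entries without an adjusted p counted as not called). It gave no adjusted p to miR-548a-3p, miR-548an, miR-548x-3p, miR-548au-5p, miR-548av-3p, miR-548ap-3p and miR-548at-5p, so it could not call these. At an unadjusted p under 0.05 it gave 5 of the 17 members (29.4%) and 14.8% of all entries. A fold above 1 was found for 12 of the 17 members, against 51.7% of all entries tested, with a median log2 fold change of 0.24 against 0.01. Among the 539 known microRNAs tested, which include the members, 56.6% had a fold above 1 and the median was 0.05. With the mean count alone as the filter, 13 of 24 members (54.2%) and 56.0% of all entries had a fold above 1 and the medians were 0.07 and 0.06. The median of the 17 was 0.08 without control library 1 and 0.10 without control library 2.

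The member with the largest fitted fold was miR-548t-5p, and it was the 1 member whose groups did not overlap (3.09% of all entries tested were so placed with ASO higher). It stood at 8.36, 13.2, 12.3 and 8.88 CPM in ASO libraries 1 to 4 and at 5.42, 7.01, 4.07 and 8.24 CPM in controls 1 to 4. The lowest ASO library and the highest control lay close together. In both, ASO library 1 and control library 4, its count equalled that of miR-548ap-3p, and it also did in ASO library 2. The mean was 10.7 ± 2.42 CPM with ASO and 6.19 ± 1.82 CPM without (SD, n = 4 libraries each). The log2 fold change was 0.79 (SE 0.26, 95% interval 0.17 to 1.40, edgeR adjusted p = 0.402), which did not pass the threshold. The adjusted p ranged from 0.0846 to 0.686 over the alternatives.

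miR-548b-5p, the leading member with the seed AAAGUAA, was steady within groups. It stood at 106, 129, 114 and 112 CPM with ASO and at 89.7, 92.2, 98.9 and 108 CPM in controls. ASO libraries 2, 3 and 4 lay above all controls and ASO library 1 lay just below control library 4. The log2 fold change was 0.24 (SE 0.09, 95% interval 0.03 to 0.46, edgeR adjusted p = 0.445, 0.0924 to 0.686 over the alternatives). Its SD within a group was 8.50% of the mean with ASO and 8.46% without, against 3.01% from counting alone. Unmatched members, miR-548ad-5p among them, had no sequence to read a seed from. Among matched members, the other well-counted member with this seed was miR-548ap-5p. Its means were 22.3 ± 2.54 CPM with ASO and 22.3 ± 1.58 CPM without (SD, n = 4 each). Its log2 fold change was 0.01 (95% interval −0.25 to 0.26), with a sign that turned with median-ratio scaling and with DESeq2. It stood at 20.1, 24.0, 25.02 and 20.3 CPM in ASO libraries and at 23.2, 24.0, 20.7 and 21.1 CPM in controls, so that the groups covered nearly the same range. Summed over the 4 matched names with the seed, the level was 126, 153, 139 and 132 CPM with ASO and 113, 116, 120 and 131 CPM without.

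miR-548a-3p was the third member by p. It stood at 2.85, 5.12, 6.52 and 4.63 CPM with ASO and at 2.96, 3.19, 2.99 and 3.07 CPM in controls, from 25 to 73 counts. The controls were close together, and ASO library 1 lay below all of them while the other 3 ASO libraries lay above. The log2 fold change was 0.65 (SE 0.26, edgeR adjusted p = 0.445).

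Other members counted in every library did not pass either. miR-548ad-5p stood at 32.9, 47.8, 39.0 and 42.0 CPM with ASO and at 30.2, 35.6, 27.9 and 35.3 CPM without (log2 fold change 0.33, SE 0.14, edgeR adjusted p = 0.445). Its ASO libraries 2, 3 and 4 lay above all controls. miR-548l stood at 17.7, 24.3, 21.99 and 18.6 CPM with ASO and at 11.04, 15.1, 18.8 and 20.4 CPM in controls, so that the lowest 2 libraries were controls (0.34, or 0.20 without control library 1).

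miR-548e-3p stood at 49.8, 52.0, 57.6 and 42.1 CPM with ASO and at 39.8, 46.2, 48.3 and 53.0 CPM in controls (log2 fold change 0.10, 95% interval −0.19 to 0.40, and 0.02 without ASO library 3, 0.05 without control library 1, 0.16 without control library 4 and 0.17 without ASO library 4). miR-548ag stood at 17.7, 14.6, 13.9 and 17.96 CPM with ASO and at 15.5, 16.2, 13.1 and 17.1 CPM in controls (log2 fold change 0.06, 95% interval −0.26 to 0.37, negative without ASO library 4 or control library 3). Both overlapped over most of their range. miR-548s (0.48, or 0.81 without control library 4) and miR-548an (0.41, or 0.25 without ASO library 2) also had a fold above 1 and did not pass.

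The most abundant member had a fold below 1. miR-548au-3p, whose seed GGCAGUU no other matched member has, stood at 208, 207, 169 and 232 CPM with ASO and at 401, 272, 225 and 224 CPM in controls. Control library 1 was far above the others, ASO library 4 lay above 2 controls and the groups overlapped. Means were 204 ± 26.1 CPM with ASO and 280 ± 83.6 CPM without (SD, n = 4 each), with a log2 fold change of −0.46 (SE 0.21, 95% interval −0.94 to 0.02, edgeR adjusted p = 0.445). Without control library 1 the log2 fold change was −0.22. The opposite strand, miR-548au-5p, was far lower, at 2.03 to 4.70 CPM with ASO and 2.17 to 4.47 CPM in controls. Its log2 fold change was −0.07, positive without ASO library 4, control library 2 or control library 4. Control library 1, the highest for the 3p strand, held the second lowest level of the 5p strand, 2.17 CPM.

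**Figure D3:**
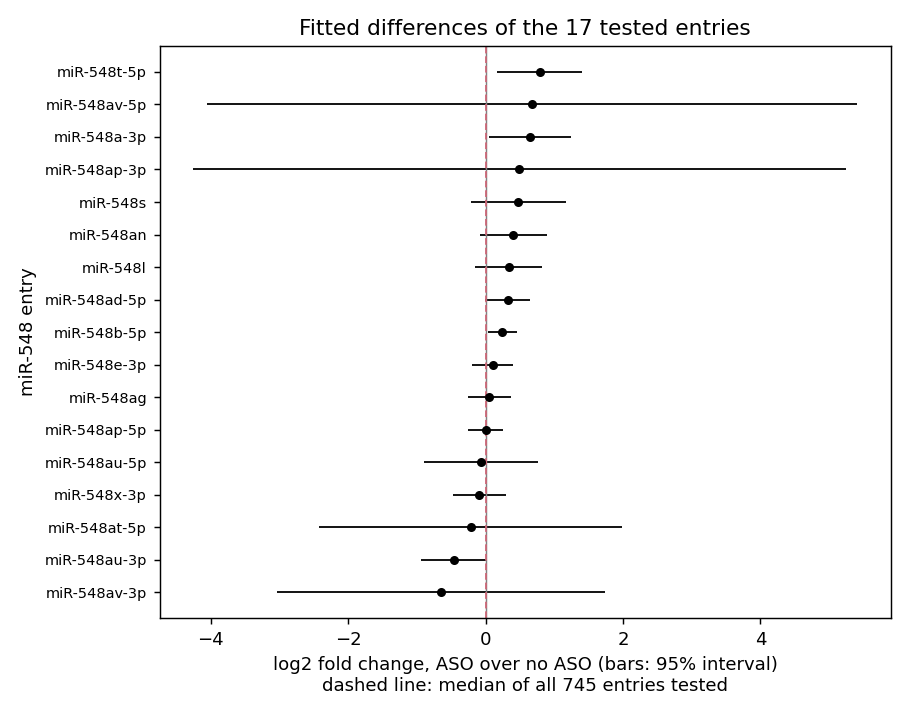
Fitted log2 fold change (ASO over no ASO) of the 17 tested miR-548 entries, with 95% intervals from edgeR's quasi-likelihood fit and a dashed line at the median of all 745 entries tested. The intervals of miR-548av-5p and miR-548ap-3p, which were at or near 0 in some libraries, are the widest.

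For members with near-absent libraries the fit was wide. miR-548av-5p had a log2 fold change of 0.68 with a 95% interval of −4.05 to 5.41, and miR-548ap-3p 0.49 with −4.26 to 5.24. Neither gives a usable comparison between groups. For miR-548av-3p the log2 value was −0.65, which became −0.21 when control library 1 was left out and −0.24 when ASO library 4 was. That of miR-548at-5p was −0.22, positive without ASO library 4 or control library 3. That of miR-548x-3p was −0.09, and ran from −0.18 without ASO library 2 to −0.01 without control library 3. Some members with low counts were absent from a whole group. How often this happened over all entries was not counted, so it is given as a description only. miR-548ba was at 0 in all 4 ASO libraries and had 50, 41, 49 and 0 counts in controls, while miR-548h-3p had 0, 25, 12 and 18 counts with ASO and 0 in all 4 controls. Neither met the rule for testing. miR-548aq-3p, miR-548f-3p and miR-548ah-3p were likewise at 0 in all ASO libraries, from 2, 1 and 1 controls above 0. So were miR-548as-5p and miR-548y, while miR-548bc and miR-548ac were at 0 in all controls, each above 0 in 1 library. Of the members, 18.8% were above 0 in a single library, against 11.9% of the other known microRNAs (104 of 871). The share was 61.3% of predicted entries and 45.8% of all entries.

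**Figure D4:**
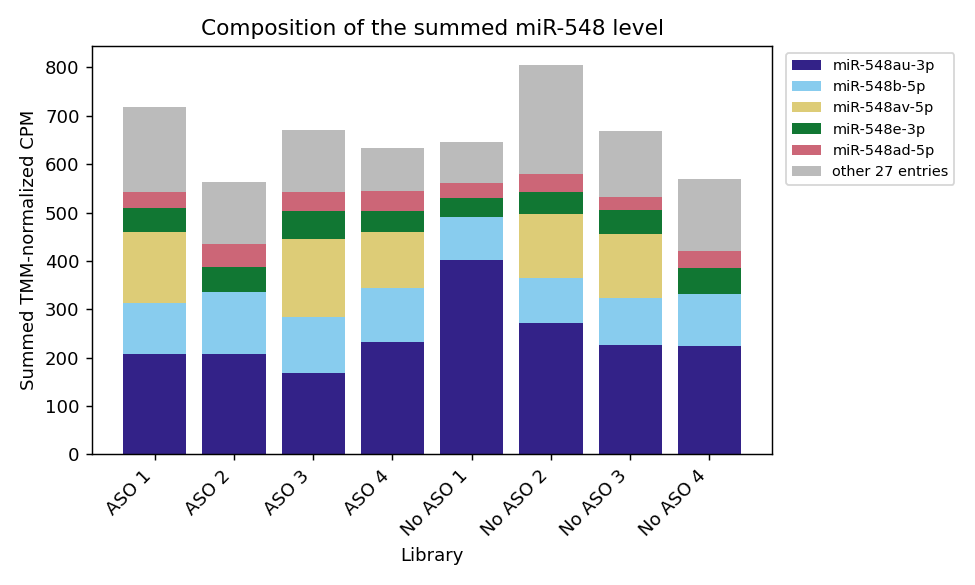
Summed TMM-normalized CPM of the 32 miR-548 entries in each library (bars from 0), split into the 5 most abundant entries and the other 27. The miR-548av-5p segment is not visible in ASO library 2 or in control libraries 1 and 4, and miR-548au-3p is tallest in control library 1.

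The summed level of the family was 718, 562, 670 and 633 CPM in ASO libraries 1 to 4 and 646, 804, 669 and 568 CPM in controls 1 to 4. The groups overlapped, with means of 646 ± 65.5 CPM with ASO and 672 ± 98.2 CPM without (SD, n = 4 each), a difference of −26.2 CPM. Its makeup moved more than its size. miR-548au-3p made up 25.2% of the family's counts in ASO library 3 and 62.1% in control library 1, where miR-548av-5p was nearly absent. Without miR-548av-5p the sums were 540 ± 31.97 CPM with ASO and 606 ± 63.5 CPM without. Without miR-548au-3p the difference between groups turned to 50.5 CPM. With that entry kept, it turned to 1.63 CPM without ASO library 2 and to 17.9 CPM without control library 2, so the sign of the sum rests on single entries and libraries. No test was made of these sums.

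MicroRNAs of other transposon-derived hairpins were set beside the family. Of the paralogous MADE1 hairpins with another number, 2 were looked up, miR-570 and miR-603, and only miR-570-3p had an entry. It had 4 counts in control library 3 and 0 in the other libraries, and it was not tested. For 10 hairpins in other repeats that were looked up, 6 entries were found and tested (miR-28-3p, miR-95-3p, miR-340-5p, miR-493-5p, miR-584-5p and miR-652-3p). miR-151a, miR-421, miR-545 and miR-1302 had no entry under those names. A fold above 1 was seen in 3 of the 6, with a median log2 fold change of 0.00, and 0 passed in either direction. The most abundant, miR-340-5p, had a mean of 3557 ± 297 CPM in ASO libraries and 3578 ± 231 CPM in controls (SD, n = 4 each). The smallest p was that of miR-652-3p (286 ± 26.9 and 216 ± 48.3 CPM, log2 fold change 0.41, edgeR adjusted p = 0.445).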

How the data were processed

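The authors deposited 1 table with a raw count per entry and library, a length of each entry, whose unit is bases, and 8 columns they headed TPM. The authors made these by scaling each count to its library total, which is CPM rather than TPM: as deposited they lay within 0.223 CPM of values computed here. The submitters' processing notes name bcl2fastq 2.20, Trimmomatic 0.30, edgeR 3.4.6 and GRCh38, and no aligner, counter or microRNA annotation (not given in the sources used here). Per the labels' protocols, a Qiagen miRNeasy kit gave the RNA and a small RNA kit from NEB the libraries.

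Tests ran on the counts with edgeR 4.0.16 (TMM, trended dispersion, quasi-likelihood F test, two-sided, Benjamini-Hochberg over 745 entries), in R 4.3.3. Standard errors were the fold change divided by the square root of F. DESeq2 1.42.0, other scalings and filters, a replicate block and leaving out each library were alternatives. The code was tested on simulated counts. Library titles gave the groups. No 2 replicates looked like 1 library deposited again (chi-square per degree of freedom from 135 to 801). Members and lists were chosen with earlier results of these data known. Values by library are given for the 10 members with the highest mean count, those past the threshold, with non-overlapping groups or among the 3 smallest p, and those at 0 in 1 library and at least 100 in another; others were named after their values were seen.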

Additional observations from a re-analysis of the deposited data

Results flagged for a closer look

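Within groups of 4 libraries, the 17 tested members gave 34 sets of levels, and 1 held a library far from the rest. miR-548s stood at 8.68 CPM in control library 4 and at 3.85 to 4.57 CPM in the other 3 controls. The gap to the nearest was 0.850 of the group's range, above Dixon's 95% critical value for 4 samples. Chance flags about 1 in 20 such sets. Without that library the log2 fold change of miR-548s was 0.81 in place of 0.48, with an edgeR adjusted p of 0.146.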

How the results depend on the processing

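No alternative brought a member past the threshold, though DESeq2 gave some members no adjusted p. The count over the whole table was 1, and became 23 with DESeq2, 4 with a mean count of at least 100, with counts above 0 in all 8 libraries, with known microRNAs only or with repeated rows kept once, 0 with no filter and 0 with the replicate block, and ranged from 0 to 5 when 1 library was left out (0 without control library 2, 5 without control library 4). The labels do not say whether the library numbers pair the libraries. Correlations of same-numbered deviations were 0.01, 0.03, 0.30 and −0.04, and low values cannot exclude a pairing. The members' median log2 fold change, 0.24, was 0.10 with no filter, 0.066 with the mean count alone as filter and 0.085 to 0.25 when 1 library was left out. Members with a fold above 1 numbered 7 of 8 at a mean count of at least 100, where fewer were tested, against 55.9% of all entries. With no filter they numbered 18 of 32 (56.25%), against 50.7% of all entries. Without 1 library they numbered 10 to 13 of 16 or 17, against 49.0 to 53.1% of all entries. Without miR-548av-5p, chosen after seeing the data, the summed level differed by −66.0 CPM. With 1 library left out, the difference ran from −60.7 to 17.9 CPM. Of single members, miR-548ap-5p turned to −0.0063 with median-ratio scaling, −0.0038 with DESeq2 and −0.0031 with counts above 0 in all 8 libraries. Leaving out 1 library it ranged from −0.068 to 0.052, miR-548ag from −0.021 to 0.106, miR-548au-5p from −0.365 to 0.121 and miR-548at-5p from −0.486 to 0.182. The cause of these moves was not tested. Depth limits the members under 50 counts, where counting error alone is over 14% of the level.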

Other observations

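A search of the whole table, made after the counts of miR-548av-5p were seen, looked for entries at 100 counts or more in each of the 3 libraries that nearly lack it and at 10 or fewer in each of the 5 that hold it. It found 1, the predicted entry NovelmiRNA-98, with 6956 counts in ASO library 2, 7405 in control library 1, 6775 in control library 4 and 0 in the other 5 libraries. Of the 1964 predicted entries, 111 (5.65%) were at 0 in some library and at 100 counts or more in another. A link between NovelmiRNA-98 and miR-548av-5p was not tested. No other entry of the table had at least 100 counts in each of the 5 libraries that hold miR-548av-5p and at most 10 in each of the other 3.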
